A study of Medicago sativa with 6 samples.

Results

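The 8 genes described here, out of 164633 genes in the count table of alfalfa (Medicago sativa), form 2 groups. The first holds 4 genes taken as copies of PHO2 from 1 gene name and from exon lengths. The second holds 4 genes that resemble them in exon structure. The 8 genes were chosen by the lengths of their exons. That rule used no expression values, though earlier results of these data were known. They are MS.genePho2-1d, the only gene that the table names, and 3 genes on chromosome 2 with exons 2 to 7 of the same lengths. The other 4 genes lie on chromosome 4 and share the lengths of exons 4 to 7. All plants were of 1 genotype, RegenSY27x, grown under a photoperiod of 16 hours (day temperature 22 °C, night temperature 18 °C), and the labels give no mutant or treatment among the samples. Roots, leaf, nodules, seedpod, stem and flower (titled flower buds) were each represented by 1 library titled as pooled, where the protocol describes 3 harvested replicates of each tissue. The age is given as 8 weeks in one label and by the number 20 with an unclear unit in another. Since the other identifiers carry no gene names, the tissue labels could not be checked against marker genes. The libraries held between 8568581 and 9883512 counts. No tissue had a replicate library, so no difference could be set against biological spread and no p-value is given. The intervals are exact 95% intervals of counting error only.

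PHO2 is known from Arabidopsis as an E2 enzyme of the ubiquitin pathway that restrains how much phosphate roots take up and pass on to the shoot. It acts through the degradation of phosphate transport proteins, and a microRNA made under phosphate starvation represses its transcript. Alfalfa is tetraploid, so a gene can be present as a separate copy on each of 4 haplotypes. The title of the series concerns alfalfa pho2 mutants and their phosphate content; the samples here are of the 1 genotype above.

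Both groups had 7 coding exons, and each group lay in 1 orientation. In chromosome 2 copies the exon lengths, in the order of transcription, were 1440 or 1452 nucleotides for exon 1 and 138, 411, 64, 140, 312 and 234 for the rest. In chromosome 4 genes they were 1443, 111, 435, 64, 140, 312 and 234. The total coding length of the chromosome 4 genes was 2739 nucleotides in each case, the same as that of MS.genePho2-1d and of the copy on chromosome 2.3. The copies on chromosomes 2.1 and 2.2 had 2751 nucleotides. The first exon had 1440 nucleotides in MS.genePho2-1d and the copy on chromosome 2.3. These also shared a last intron of 532 nucleotides, against 528 on chromosome 2.1 and 524 on chromosome 2.2. Intron 1 paired the copies otherwise, with 103 nucleotides in MS.genePho2-1d and on chromosome 2.2 and 105 on chromosomes 2.1 and 2.3. The introns set the groups apart: intron 4 had 237 nucleotides in every chromosome 2 copy, but 594, 594 and 590 nucleotides on chromosomes 4.1, 4.3 and 4.4 and 1094 on chromosome 4.2. The last intron had 104 nucleotides in every chromosome 4 gene. Across the table, 8 genes ended in exons of 64, 140, 312 and 234 nucleotides, and these were the 8 members. The genes are called copies and PHO2-like from these lengths alone, and sequences were not compared.

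**Figure D1:**
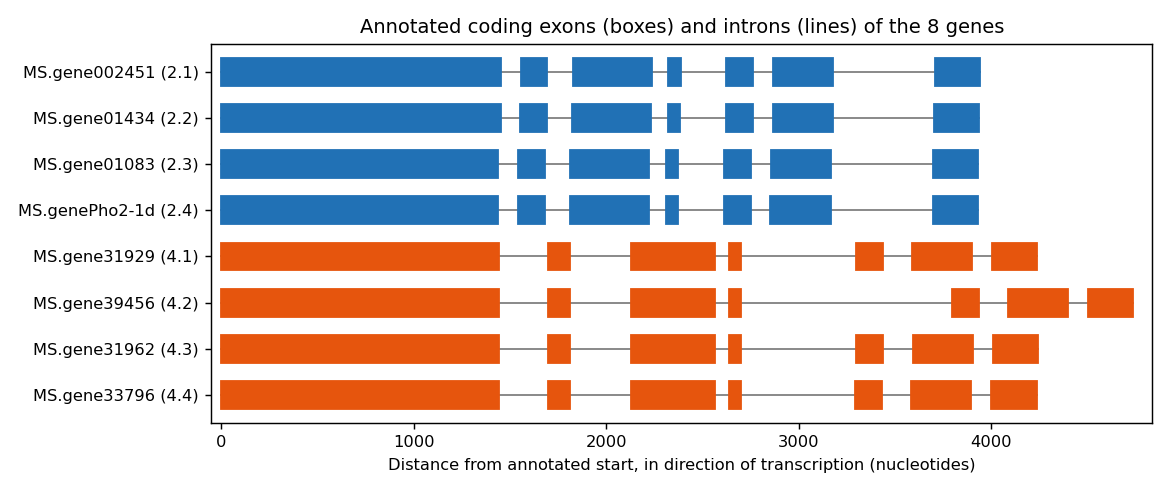
Coding exons (boxes) and introns (lines) of the 8 genes, drawn to scale as distance in nucleotides from the annotated start in the direction of transcription, chromosome 2 copies in blue and chromosome 4 genes in orange. The last 4 exons have equal lengths in all 8 genes, while intron 4 reaches 1094 nucleotides in MS.gene39456 against 237 in the chromosome 2 copies.

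The gene order around the copies was alike on some haplotypes and not on others. The copy on chromosome 2.1, MS.gene002451, lay on the forward strand at 71269986 to 71273927, and the copy on chromosome 2.2, MS.gene01434, on the same strand at 69045836 to 69049771, in the coordinates of the count table, whose genome build is not given in the sources used here. Of the 10 annotated genes on each side of MS.gene002451, 7 had a counterpart with the same exon lengths among the 20 neighbours of MS.gene01434. The gene just before each was a 9-exon gene of 1716 nucleotides. The copy on chromosome 2.3, MS.gene01083, lay far from that position, at 25049449 to 25053382, and 1 of its 20 neighbours had a counterpart beside MS.gene002451 and 0 beside MS.gene01434. That 1 neighbour was a single-exon gene of 5304 nucleotides. A counterpart had to have equal exon lengths, which leaves out genes of close length. After MS.gene01434, as after MS.gene01083, came a forward and then a reverse single-exon gene, of 2400 and 5331 nucleotides against 2403 and 5304. On chromosome 2.3 the 9-exon gene of 1716 nucleotides started at 70794203, away from the PHO2 copy. On chromosome 2.4 itself 0 genes had the last 4 exon lengths of PHO2, and a single-exon gene of 5304 nucleotides started at 70994762. MS.genePho2-1d stood alone on its own sequence, named for chromosome 2.4, from position 1 to 3932. On chromosome 4, by contrast, all 4 genes lay on the reverse strand between 20991612 and 24312944, and between 8 and 12 of the 20 neighbours of each gene had a counterpart near the member on another haplotype. In each case the nearest gene was on the opposite strand, with 465 nucleotides between it and the 3′ end of the member's coding region.

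In all 4 chromosome 2 copies the counts per library ran in the same order, except that MS.gene01434 had slightly more counts in nodules than in seedpod. Levels are counts per 1000000 of the library total scaled by the trimmed mean of M-values, written TMM CPM. On that scale MS.gene002451, MS.gene01434 and MS.genePho2-1d ran in 1 order, with nodules ahead of seedpod. MS.gene01083 was then the exception, with leaf ahead of roots and seedpod ahead of nodules. The 8 coding lengths differ so little that dividing by length left all 48 shares given below inside their intervals.

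MS.genePho2-1d had 1012 counts in roots, 564 in leaf, 327 in seedpod, 305 in nodules, 142 in flower and 92 in stem. MS.gene002451 had 971 counts in roots, 667 in leaf, 240 in seedpod, 220 in nodules, 141 in flower and 117 in stem. Roots and leaf were thus high and flower and stem low in both genes. MS.gene01434 had 1088 counts in roots, 362 in leaf, 263 in nodules, 258 in seedpod, 123 in flower and 108 in stem, so that its leaf value stood well below its root value. MS.gene01083 had the fewest, with 320 counts in roots, 317 in leaf, 116 in seedpod, 74 in nodules, 61 in flower and 41 in stem. Stem was lowest in each of the 4 copies.

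On the TMM CPM scale the ratio of roots to leaf differed between copies. It was 2.29 (2.03 to 2.59) for MS.gene01434 and 0.769 (0.656 to 0.901) for MS.gene01083, with 1.37 (1.23 to 1.52) for MS.genePho2-1d and 1.11 (1.004 to 1.23) for MS.gene002451 between them. For MS.gene01083 roots and leaf change places when levels are set per library total (ratio 1.04), whereas the order of the copies by this ratio does not depend on the scaling, which multiplies all of them alike. The ratio of roots to nodules was more even, at 2.88 (2.53 to 3.28) for MS.genePho2-1d and between 3.59 and 3.83 for the other copies. MS.genePho2-1d had the lowest of these ratios, and its interval overlapped those of MS.gene01083 (2.91 to 4.90) and MS.gene01434 (3.14 to 4.12) but not that of MS.gene002451 (3.31 to 4.45).

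The chromosome 4 genes were led by 1 copy. MS.gene39456, on chromosome 4.2 at 22209780 to 22214517, had 561 counts in roots, 326 in nodules, 298 in stem, 295 in seedpod, 84 in flower and 5 in leaf. MS.gene33796, on chromosome 4.4 at 23914950 to 23919185, followed with 181 counts in roots, 156 in stem, 146 in seedpod, 131 in nodules, 21 in flower and 2 in leaf. Leaf was the low tissue in both, and roots the highest.

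The remaining pair was scarce everywhere. MS.gene31929 on chromosome 4.1 (20991612 to 20995851) had 34 counts in roots, 26 in stem, 19 in seedpod, 17 in nodules, 5 in flower and 0 in leaf. MS.gene31962 on chromosome 4.3 (24308702 to 24312944) had 46 counts in roots, 40 in seedpod, 37 in stem, 25 in nodules, 5 in flower and 0 in leaf. With 3 counts set in place of 0, or 0.418 TMM CPM in leaf, roots were 8.63-fold above that limit in MS.gene31929 and 11.7-fold in MS.gene31962. These values leave out counting error and are not lower bounds. With the 3 counts treated as measured, the intervals were 2.71 to 43.9 and 3.75 to 58.7. The exact interval of 0 leaf counts itself reached 0.514 TMM CPM. The ratio of roots to leaf was 85.5 (36.4 to 264) in MS.gene39456, and 68.9 (18.8 to 574) in MS.gene33796, where 2 leaf counts leave the interval wide. All 4 chromosome 4 genes were therefore low in leaf, at 7 counts together. In pooled tissue, fewer cells of a type that holds a transcript and less of it per cell cannot be told apart.

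**Figure D2:**
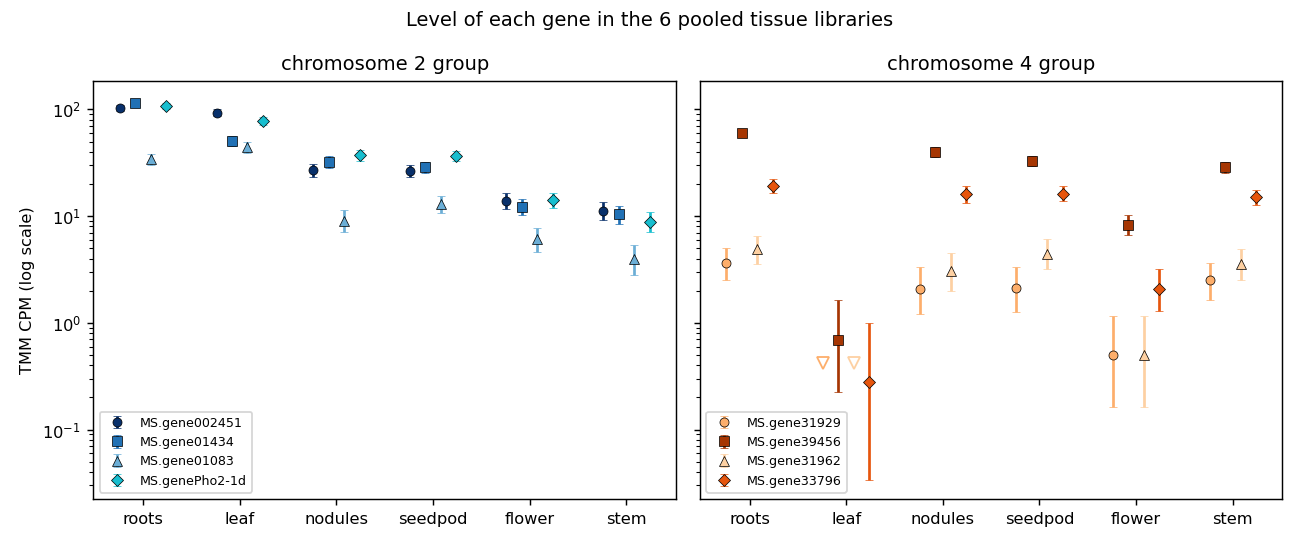
Level of each gene in TMM CPM (log scale) in the 6 tissue libraries, chromosome 2 copies on the left and chromosome 4 genes on the right. Bars are 95% counting intervals and open triangles mark the limit of 0.418 TMM CPM for the 2 genes with 0 counts in leaf. The chromosome 2 copies reach 33.9 TMM CPM or more in both roots and leaf, whereas the chromosome 4 genes lie at 0.696 TMM CPM or less in leaf.

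Within the chromosome 2 group, MS.genePho2-1d, MS.gene002451 and MS.gene01434 held nearly equal parts of the counts, and MS.gene01083 a smaller one. Over all 6 libraries their shares were 30.8%, 29.7%, 27.8% and 11.7%. These shares compare copies inside 1 library and do not depend on how libraries are scaled. How the counting placed reads that match more than 1 copy is not given in the sources used here, and its part in the shares was not tested.

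Leaf was the tissue where the division among the PHO2 copies differed most. MS.gene01434 held 32.1% of the group's counts in roots (30.5 to 33.7), 30.5% in nodules (27.45 to 33.7), 30.2% in stem (25.5 to 35.2), 27.4% in seedpod (24.6 to 30.4) and 26.3% in flower (22.4 to 30.6), but 19.0% in leaf (17.2 to 20.8). The leaf interval did not overlap any of the other 5. MS.gene01083 went the other way, with 16.6% in leaf (14.95 to 18.3), 13.1% in flower (10.1 to 16.5), 12.3% in seedpod (10.3 to 14.6), 11.5% in stem (8.35 to 15.2), 9.44% in roots (8.47 to 10.5) and 8.58% in nodules (6.80 to 10.7). Its leaf interval lay clear of those of roots, nodules and seedpod, and overlapped those of flower and stem. In leaf these 2 copies were therefore close, with a ratio of MS.gene01434 to MS.gene01083 of 1.14 (0.979 to 1.33), against 3.40 (2.999 to 3.86) in roots and 3.55 (2.74 to 4.66) in nodules.

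MS.gene002451 held 34.9% in leaf (32.8 to 37.1) and 32.7% in stem (27.8 to 37.8), where it was the copy with the most counts, against 30.2% in flower, 28.6% in roots and 25.5% in both nodules and seedpod. MS.genePho2-1d held 35.4% in nodules (32.2 to 38.7) and 34.8% in seedpod (31.7 to 37.9), where it led, with 30.4% in flower, 29.8% in roots (28.3 to 31.4), 29.5% in leaf and 25.7% in stem (21.2 to 30.6). Its nodule and seedpod intervals lay above those of roots and stem. The copy with the most counts thus was MS.gene01434 in roots, MS.gene002451 in leaf and stem, and MS.genePho2-1d in nodules and seedpod. In flower MS.gene002451 and MS.genePho2-1d stood at 141 and 142 counts, a ratio of 0.993 (0.781 to 1.26). In roots MS.gene01434 and MS.genePho2-1d were not distinguishable either, at a ratio of 1.08 (0.986 to 1.17), nor in nodules, at 0.862 (0.728 to 1.02). In stem MS.gene002451 was not distinguishable from MS.gene01434, at 1.08 (0.827 to 1.42), or from MS.genePho2-1d, at 1.27 (0.960 to 1.69).

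The chromosome 4 group was divided less evenly and in another way. MS.gene39456 held 63.8% of the group's counts over all libraries, MS.gene33796 25.9%, MS.gene31962 6.22% and MS.gene31929 4.11%. MS.gene39456 was the most abundant of the group in every library, with 73.0% in flower (64.0 to 80.9), 68.2% in roots (64.9 to 71.4), 65.3% in nodules (61.0 to 69.5), and less in seedpod, at 59.0% (54.5 to 63.3), and stem, at 57.6% (53.3 to 61.9). In leaf it had 5 of 7 counts, too few to place (29.0 to 96.3%). MS.gene33796 held 30.2% in stem (26.2 to 34.3), 29.2% in seedpod (25.2 to 33.4), 26.3% in nodules, 22.0% in roots (19.2 to 25.01) and 18.3% in flower (11.7 to 26.5). The intervals of stem and seedpod lay above that of roots for MS.gene33796 and below that of roots for MS.gene39456. MS.gene31962 ranged from 4.35% in flower to 8.00% in seedpod and MS.gene31929 from 3.41% in nodules to 5.03% in stem, leaf left aside. For each of this scarce pair the intervals of the highest and the lowest of these 5 tissues overlapped.

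**Figure D3:**
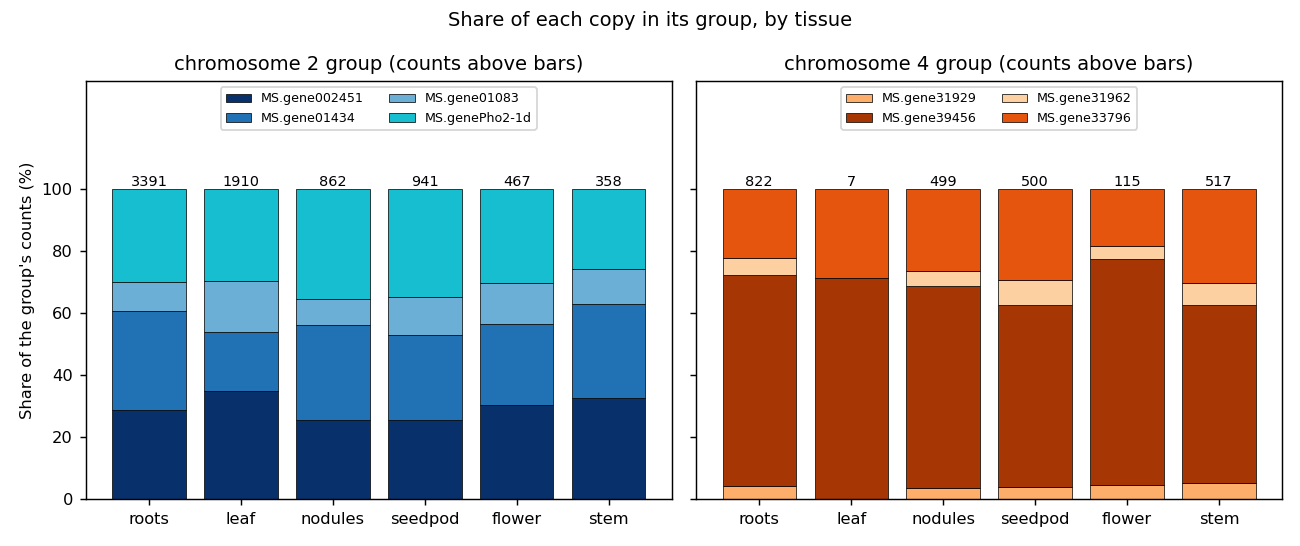
Share of each gene in the counts of its group (percent) in each tissue library, chromosome 2 group on the left and chromosome 4 group on the right, with the group's counts above each bar. The share of MS.gene01434 is 19.0% in leaf against 26.3% to 32.1% elsewhere, and MS.gene39456 holds 57.6% or more of the chromosome 4 counts in every tissue; the leaf bar of that group rests on 7 counts.

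To place these shares, the same values were taken for all other sets in the table with 1 gene on each of the 4 haplotypes, at least 3 exons, equal lengths of all exons from the second on, and at least 100 counts per set in every library used. There were 1205 such sets over 6 libraries, and their most abundant copy held 61.5% of the counts at the median. In the chromosome 2 group it held 30.8%, and 0.913% of the sets had a lower value. The chromosome 4 group could be compared over the 5 libraries other than leaf, a choice made after its 7 leaf counts were seen. Its leading copy held 63.8% there, and 53.0% of 1505 sets had a lower value.

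The movement of the shares between tissues was measured as the range of each copy's share over the libraries, averaged over the 4 copies. It was 10.1 percentage points in the chromosome 2 group over 6 libraries, against a median of 5.70 in the other sets, and 87.4% of the sets had a lower value. Without leaf it was 6.77 points in the chromosome 2 group, against a median of 4.82. In the chromosome 4 group without leaf it was 8.15 points, and 84.1% of the sets had a lower value. This range is larger in sets with few counts and in sets with even copies. Among the 29 sets whose leading copy held 35% or less, the median was 7.99 points over 6 libraries, and 69.0% of them lay below the chromosome 2 group. Without leaf there were 39 such sets with a median of 6.66 points, and 51.3% of them lay below it. These comparisons describe the sets and are not tests.

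**Figure D4:**
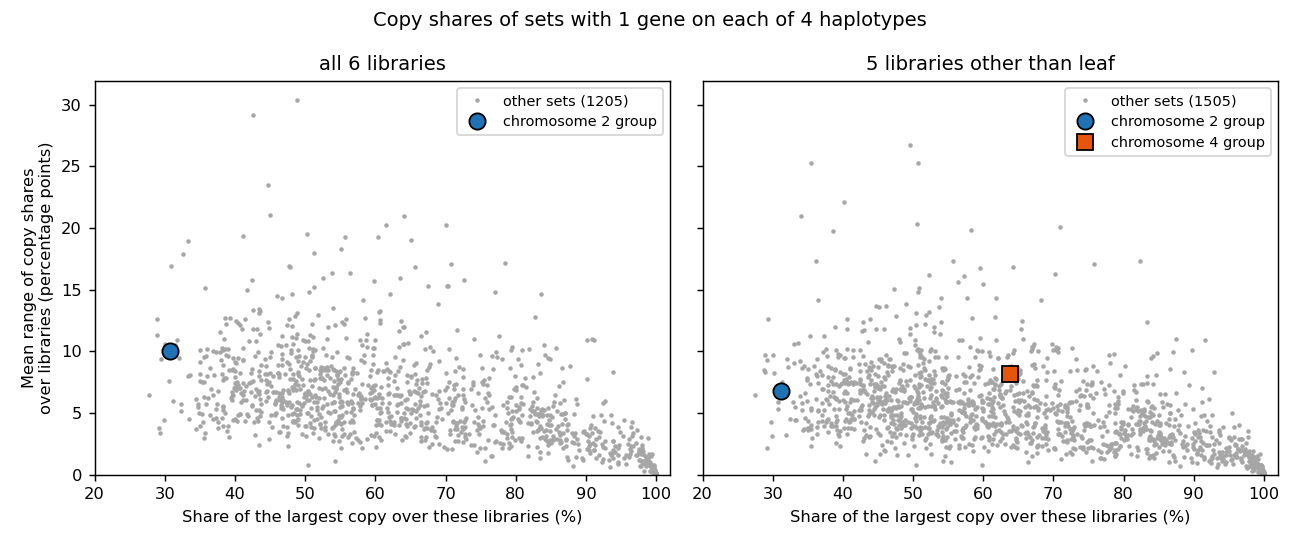
Mean range of copy shares over the libraries (percentage points, vertical axis) against the share of the largest copy (percent, horizontal axis) for sets with 1 gene on each of 4 haplotypes, over all 6 libraries on the left and over the 5 libraries other than leaf on the right. Grey points are the 1205 and 1505 other sets; the chromosome 2 group lies at 30.8% and 10.1 points on the left, and the chromosome 4 group at 63.8% and 8.15 points on the right.

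The 2 groups divided the tissues unevenly. Of the counts on all 8 genes, the chromosome 2 group held 99.6% in leaf (99.2 to 99.9, 1910 of 1917 counts), 80.5% in roots (79.3 to 81.7, 3391 of 4213) and 80.2% in flower (76.8 to 83.4, 467 of 582). It held 65.3% in seedpod (62.8 to 67.8, 941 of 1441) and 63.3% in nodules (60.7 to 65.9, 862 of 1361). In stem it held 40.9% (37.6 to 44.3, 358 of 875), and stem was the tissue where the chromosome 4 group had more counts than the chromosome 2 group. That order turned, to 54.8% on the chromosome 2 group, when the copy of each group with the most counts over all libraries was left out. These copies were MS.genePho2-1d, with 92 of the 358 chromosome 2 counts in stem, and MS.gene39456, with 298 of the 517 chromosome 4 counts there. Leaving them out took a larger part of the chromosome 4 counts and so had to raise the chromosome 2 share. The tissues thus fell into 4 steps whose intervals did not overlap: leaf, then roots and flower, then seedpod and nodules, then stem. Roots and flower were not distinguishable, with a ratio of their chromosome 2 to chromosome 4 ratios of 1.02 (0.810 to 1.27), nor were seedpod and nodules, at 1.09 (0.930 to 1.28). Being taken within a library, this division does not depend on the scaling.

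The ratio of chromosome 2 to chromosome 4 counts was 4.13 (3.82 to 4.46) in roots, against 1.73 (1.55 to 1.93) in the nodules that form on them, a 2.39-fold difference (2.08 to 2.74). Between roots and stem it differed 5.96-fold (5.09 to 6.98). Between leaf and stem it differed 394-fold (187 to 991), a wide interval that rests on the 7 leaf counts of the chromosome 4 group. Within the aerial tissues, flower and stem differed 5.86-fold (4.56 to 7.56).

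**Figure D5:**
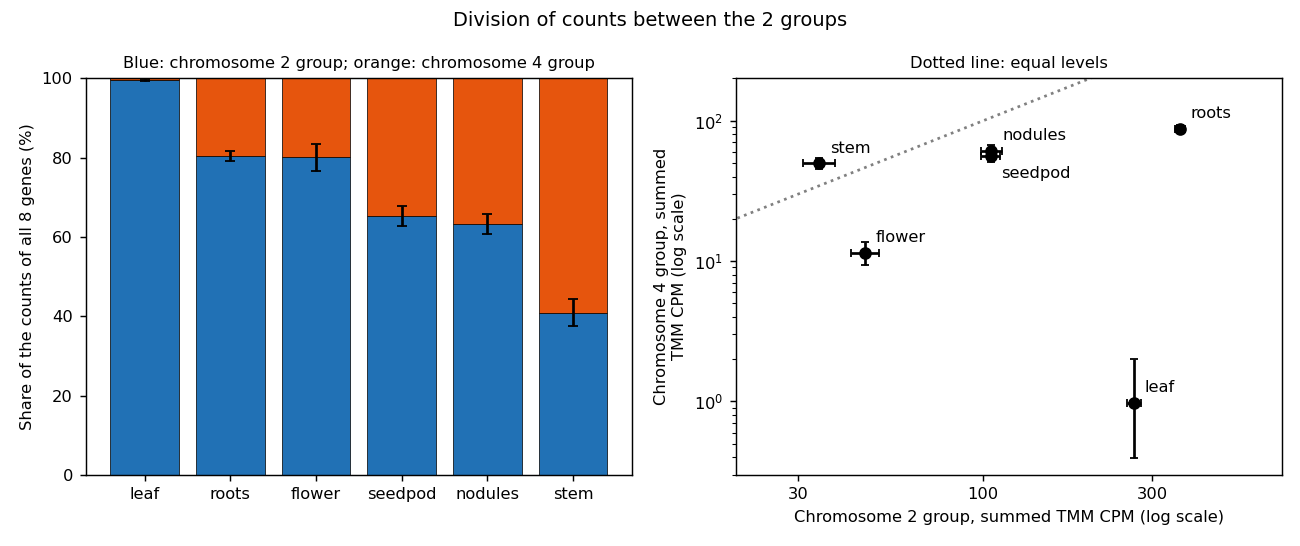
Left, share of the counts of all 8 genes (percent) on the chromosome 2 group (blue) and the chromosome 4 group (orange) by tissue, with 95% counting intervals. Right, summed TMM CPM of the 2 groups against each other on log axes, with the line of equal levels dotted: stem is the 1 tissue above the line, and leaf, at 0.975 TMM CPM on the vertical axis, lies far below the rest.

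The summed level of the 8 genes in roots was 447 TMM CPM (434 to 461), and their leaf level was 267 (255 to 279). The sum was 166 for nodules (158 to 175), 161 in seedpod (152 to 169), 84.0 for stem (78.5 to 89.8) and 57.8 in flower (53.2 to 62.7). The range from the highest to the lowest tissue was thus 7.73-fold for all 8 genes, against 10.5-fold for the chromosome 2 group alone and 89.4-fold for the chromosome 4 group. Stem is the lowest tissue of the chromosome 2 group and flower that of the 8 genes together. The median range over the 28247 genes that reached 10 TMM CPM in some library was 10.1-fold, with low sides set to at least 3 counts. The range of the chromosome 2 group lay above 50.7% of these genes and that of the chromosome 4 group above 86.2%. These are sums of 4 genes set beside single genes, and the 89.4-fold (43.2 to 223) rests on 7 leaf counts. Taken singly, the chromosome 2 copies lay above 48.2% to 53.2% of the genes. The values were 85.6% for MS.gene39456, 75.0% for MS.gene33796, 52.6% for MS.gene31962 and 47.0% for MS.gene31929.

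The order of the middle tissues was not firm. In the chromosome 2 group nodules and seedpod were at a ratio of 1.005 (0.915 to 1.10), and their order turned with library totals. In the chromosome 4 group the ratio of nodules to seedpod was 1.09 (0.965 to 1.24) and that of seedpod to stem 1.12 (0.991 to 1.27). With library totals stem came next after roots in that group, ahead of seedpod and nodules.

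At a fixed size of difference, 10 TMM CPM or more on the high side and 4-fold or more over the low side, the groups met different pairs of tissues. Of the 8 genes, 6 reached 10 TMM CPM in some library, and MS.gene31929 and MS.gene31962, at no more than 3.61 and 4.88, could not meet the rule. No chromosome 4 gene reached 10 TMM CPM in leaf (0.696 at most) or flower (8.34 at most). That group therefore could not meet the rule with leaf or flower on the high side. Leaf over stem was met by 4 of 4 chromosome 2 copies and 0 of 4 chromosome 4 genes, where 19.3% of all genes at 10 TMM CPM in either tissue met it. Stem over leaf was met by 0 of 4 and 2 of 4, with 21.8% of all genes. Leaf over flower was met by 4 of 4 chromosome 2 copies (22.3% of all genes), while no chromosome 4 gene was at 10 TMM CPM in either tissue. Roots over stem was met by 4 of 4 and 0 of 4 (14.0%). Roots over flower was met by 4 of 4 and 2 of 4 (17.3%).

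The chromosome 4 pair that could meet the rule, MS.gene39456 and MS.gene33796, did so against leaf in every other tissue but flower: over leaf in roots (23.5% of all genes), nodules (25.4%), seedpod (22.7%) and stem. Both also met it in nodules over flower (24.3%), and MS.gene33796 alone in seedpod over flower (8.54%) and stem over flower (7.32%). Single chromosome 2 copies met it in 4 further pairs: MS.gene01083 in leaf over nodules (17.5%), MS.gene01434 in roots over seedpod (15.5%), and MS.genePho2-1d in nodules over stem (21.8%) and seedpod over stem (6.19%). No more than 6 of the 8 members were at 10 TMM CPM in either tissue of a pair, and in flower and leaf only the 4 chromosome 2 copies were. MS.gene01083 was under 10 TMM CPM in flower (6.06), nodules (9.05) and stem (3.94), and MS.genePho2-1d in stem (8.83). They could not meet the rule with these tissues on the high side. In 15 of the directions 0 of 8 members met it, with fewer than 8 able to. These were flower over leaf (22.5% of all genes), nodules (15.4%), roots (12.3%), seedpod (5.18%) and stem (6.35%), and leaf over roots (19.8%) and seedpod (20.0%). They were also nodules over roots (14.0%) and seedpod (22.5%), roots over nodules (9.14%), and seedpod over nodules (16.8%) and roots (14.4%). The last were stem over nodules (16.1%), roots (11.9%) and seedpod (5.97%). Not all of the calls were clear of the 4-fold limit. Where the lower end of the ratio's interval had to reach 4, the chromosome 2 copies met the rule 14 times instead of 20 over all pairs, and the chromosome 4 genes 13 times instead of 14. The calls lost were the 4 made by single chromosome 2 copies, leaf over flower and leaf over stem in MS.gene01434, and nodules over flower in MS.gene39456. For MS.gene01434 leaf over flower was 4.13 (3.35 to 5.11) and leaf over stem 4.86 (3.91 to 6.09). Over the 15 pairs the 4 chromosome 2 copies met the rule between 4 and 6 times each, against a median of 4 over all genes that reached 10 TMM CPM. MS.gene33796 met it 8 times and MS.gene39456 6 times, while MS.gene31929 and MS.gene31962 met it 0 times.

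Across the 6 tissues the copies of a group followed each other. This is a description over 6 libraries whose scaling and depth all pairs share. On the log2(TMM CPM + 1) scale, Pearson's r lay between 0.895 and 0.983 for the 6 pairs of chromosome 2 copies and between 0.953 and 0.988 for the 6 pairs of chromosome 4 genes. Between the groups the 16 pairs lay between -0.34 and 0.18. Without leaf, over 5 tissues, the pairs between the groups lay between 0.439 and 0.749. Values as low as those over 6 tissues thus rested on the leaf library. Pairs between the groups still lay below those within them, at 0.973 to 0.995 for chromosome 2 and 0.939 to 0.980 for chromosome 4. The genes outside the members with the pattern most like the summed chromosome 2 group were MS.gene052374 (chromosome 4.4, 33137390 to 33142013; r = 0.988) and MS.gene50249 (chromosome 5.2, 61337601 to 61338665; r = 0.986). Their levels moved little, from 8.84 to 15.4 TMM CPM in MS.gene052374 and from 19.5 to 27.5 in MS.gene50249, and with library totals r fell to 0.790 and 0.547. For the chromosome 4 group they were MS.gene065675 (chromosome 1.4, 82947859 to 82952312; r = 0.997) and MS.gene061547 (chromosome 3.2, 60471514 to 60472233; r = 0.993). Leaf was the lowest tissue in both, but their levels moved less, from 3.76 to 13.4 and from 7.24 to 27.5 TMM CPM. The summed chromosome 4 group ran from 0.975 in leaf to 87.2 in roots.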

How the data were processed

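RNA from 6 tissues was measured in 1 pooled library each. The authors deposited raw counts per gene with exon positions and summed exon lengths, per the file headers. The summed length, an other quantity than a count, is called coding length because 95.6% of the lengths are multiples of 3. Per the submitters' processing notes, featureCounts, edgeR, FastQC and Trimmomatic were used, with no version stated. Not given in the sources used here were the aligner, the build, the strand setting and how reads matching more than 1 place were treated. The library totals of 8568581 to 9883512 counts limit the precision.

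Levels were scaled with edgeR 4.0.16 (TMM) in R 4.3.3, with DESeq2 1.42.0 size factors and library totals as alternatives. Shares carry Clopper-Pearson intervals, levels exact Poisson intervals and ratios exact conditional binomial intervals, computed in Python 3.11.15 with scipy 1.17.1 and checked on simulated data. Intervals and the limit of 3 counts cover only counting error. They may be too narrow even for that, because without molecular identifiers a read need not be a separate molecule. No gene was called with a p-value; called genes had 10 TMM CPM and 4-fold, with low sides under 3 counts set to 3. The 8 members were named in full, and beside them the 2 genes of highest r per group and neighbours by position. The members and lists were chosen with earlier results of these data known. No identifier matched 63463 RefSeq genes of the Bolivia_mono assembly (0 matches), so a list of phosphate signalling genes had no values, and no sequences were used.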

Additional observations from a re-analysis of the deposited data

How the results depend on the processing

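No paired analysis was possible because each tissue has 1 library and no result comes from a replicated test. Dividing by coding length kept the 6 values of the division between groups and all 48 copy shares inside their intervals. Without MS.genePho2-1d the chromosome 2 share was 74.3% in roots, 73.9% in flower, 55.1% in seedpod, 52.7% in nodules and 34.0% in stem. Without the most abundant copy of each group (MS.genePho2-1d and MS.gene39456) it was 91.3% in flower, 90.1% in roots, 76.3% in nodules, 75.0% in seedpod and 54.8% in stem. In stem the chromosome 2 group then held more than the chromosome 4 group. A rise was set in advance, since MS.gene39456 held a larger part of its group than MS.genePho2-1d did. With DESeq2 size factors roots over leaf became 1.26 for the chromosome 2 group, with library totals 1.83, and 1.77 with totals that leave out the top 100 genes; the cause was not tested. With these last scalings leaf over stem was 5.32 and 5.59, and roots over nodules 4.54 and 4.25 (3.71 without MS.genePho2-1d). For the chromosome 4 group roots over nodules became 1.90 and 1.78. The percentage of other sets with less movement of shares than the chromosome 2 group was 76.0 at a minimum of 30 counts and 94.8 at 300, a limit chosen after seeing the data. Without leaf, where the value was 72.3, it was 75.3 with all exons matched, 60.0 at 30 counts and 86.7 at 300, and for the chromosome 4 group 72.3 at 30 counts. With a minimum of 1 TMM CPM the chromosome 4 genes met the 4-fold rule 32 times over the 15 pairs instead of 14, since lower levels could then be tested. The number of genes at r of 0.95 or more with the chromosome 2 group was 30, then 56 with a minimum of 1 TMM CPM and 17 with library totals; for the chromosome 4 group it was 85, then 155 with a minimum of 1 TMM CPM and 47 with log2(TMM CPM + 5). None of the 4 genes of like pattern stayed among the leading 2 with library totals (0 shared in either group). Against library totals, TMM moved all levels by 0.30 in leaf, 0.27 in nodules, -0.04 in seedpod, -0.14 in roots, -0.16 in flower and -0.24 in stem on the log2 scale. Depth limits the leaf values of the chromosome 4 genes, which had 7 counts together.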

Other observations

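The run of exon lengths 64, 140 and 312 that all 8 members share occurred in 29 further genes: 17 on chromosome 2, 4 each on chromosomes 4 and 8, 3 on chromosome 7 and 1 on a scaffold. They were found after the data had been seen, and nothing in the files names them. Of the 29 genes, 12 had no count in any library and 2 reached 10 TMM CPM, MS.gene068755 and MS.gene059826. MS.gene068755 on chromosome 2.3 (18473579 to 18477306) had 132 counts in flower, 83 in roots, 63 in seedpod, 29 in both nodules and stem and 2 in leaf, so that it was low in leaf but, unlike the 8 members, highest in flower. MS.gene059826 on chromosome 2.4 (18377061 to 18380832) had 12.6 TMM CPM in roots, 12.5 in nodules, 11.4 in seedpod, 7.66 in leaf, 7.05 in flower and 5.47 in stem, a flatter pattern. The summed level of the 4 genes on chromosome 8 was highest in nodules, at 9.78 TMM CPM (7.75 to 12.2), against 3.93 in roots (2.76 to 5.41), although MS.gene36057 had 0 counts in nodules.

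Genes beside the members had levels and tissues of their own. The 9-exon neighbour of the copy on chromosome 2.1, MS.gene002452, lay between 38.2 TMM CPM in flower and 51.8 in stem, and its counterpart MS.gene01435 beside the copy on chromosome 2.2 between 2.23 in roots and 3.68 in seedpod. None of the 20 neighbours of MS.gene01083 reached 10 TMM CPM in any library (0 of 20), against 4 beside MS.gene002451 and 6 beside MS.gene01434. On chromosome 4, the 9-exon genes of 2706 nucleotides near 3 of the members were high in seedpod and flower: MS.gene33798 had 32.6 TMM CPM in seedpod, 20.5 in flower and 0.106 in roots, where its neighbour MS.gene33796 was highest.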
